A study of Mus musculus with 8 samples.

Results

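The lung B cell genes described here are 31 genes chosen by name for their use in B cells, among them Ms4a1, Cd79a and Cd79b, and all 31 were found by symbol among the 23284 genes of the table. They were measured by RNA sequencing of whole lungs from 8 wild-type (WT) C57BL/6 mice, each given a bone marrow transplant and then kept under hypoxia for 3 days. In 4 mice the marrow came from donors lacking all 3 nitric oxide synthases (triply n/i/eNOS-/-, called NOS-null marrow here), and in the other 4 it came from WT donors (WT marrow). Every recipient was WT, transplanted and hypoxic. The recipients' own lung cells kept the 3 synthase genes. The labels used here do not state the conditioning before transplant, the age of the mice or how many lung leukocytes came from the donor. No lung from normal air was analysed here. The study asks, by its title, how nitric oxide synthases of myeloid cells act in pulmonary hypertension induced by hypoxia.

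B cells arise in the bone marrow and are therefore rebuilt from donor cells after a transplant. Mature B cells circulate through the lung and carry a B cell receptor, an antibody on the cell surface paired with the signalling chains CD79A and CD79B. Binding of antigen sets off tyrosine kinases and adaptors inside the cell, and co-receptors on the surface raise or dampen that signal. The identity of the lineage is held by transcription factors such as PAX5 and EBF1. Of the 31 genes, 14 were set apart from general knowledge as largely restricted to the B lineage, and the other 17 are B cell genes that other cells of lung or blood also use. In whole lung, fewer B cells and less RNA per B cell cannot be told apart.

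Values are read counts divided by a size factor for each library, called scaled reads, where 1 read is worth 0.937 to 1.09. Library totals ran from 7767065 to 8625142 scaled reads. Of the 31 genes, 30 passed the filter of at least 10 scaled reads in at least 4 libraries, and Pax5 did not. Of the deleted genes, Nos2 stood at 13.3 to 43.5 scaled reads with NOS-null marrow and at 87.4 to 115 with WT marrow. Nos3 overlapped, at 177 to 219 against 171 to 207 (log2 difference 0.07, adjusted p = 0.701), and Nos1 was at most 1.09 in any library. NOS-null marrow replicate 1 held far more neutrophil RNA than the other libraries. The summed level of 9 neutrophil markers was 91967 scaled reads there, against 5704 to 10182 in the other 3 NOS-null marrow libraries and 2342 to 5917 with WT marrow. NOS-null marrow replicate 2 held the most T cell RNA, 2905 scaled reads over 16 markers against 785 to 1226 in the other 7 libraries. The part of these in the results below was not tested.

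B cell genes stood lower with NOS-null marrow, very unevenly between its 4 mice. Ms4a1, Cd79a, Cr2, Fcer2a, Fcrla and Faim3 stood at 0.75% to 3.79% of their WT marrow means in replicate 1. Cd79b stood at 9.42% there, whereas the surface genes Cd22 and Cd180 kept 41.7% and 88.6%. Exons of other genes on the opposite strand overlap those of Cd22 and Cd180, and the strand used in counting is not given. Over the 13 tested B-lineage restricted genes the median level, as a percent of each gene's WT marrow mean, was 3.79% in replicate 1, 17.1% in replicate 2, 56.2% in replicate 3 and 64.8% in replicate 4. Of the 30 tested genes, 28 had a negative log2 difference (NOS-null marrow minus WT marrow), with a median of −0.71 against 0.00 over all 14008 tested genes. Without NOS-null marrow replicate 1 the median was −0.47. Only Bcl11a and Rasgrp3 passed a Benjamini-Hochberg adjusted p of 0.05 in limma over all tested genes. Both fell and no member rose. Over all tested genes 4.05% were called, 2.18% lower and 1.87% higher. Both belong to the genes shared with other cells, and none of the 13 restricted genes passed in the fit of all 8 libraries. At an unadjusted p under 0.05, 14 members were lower and 0 higher, beside 13.3% of all tested genes in each direction. In 11 of the 30 all 4 NOS-null marrow values lay below all 4 WT marrow values, and 9.29% of all tested genes were lower in this way. In 0 of the 30 the NOS-null marrow values all lay above, beside 7.82% of all tested genes.

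**Figure D1:**
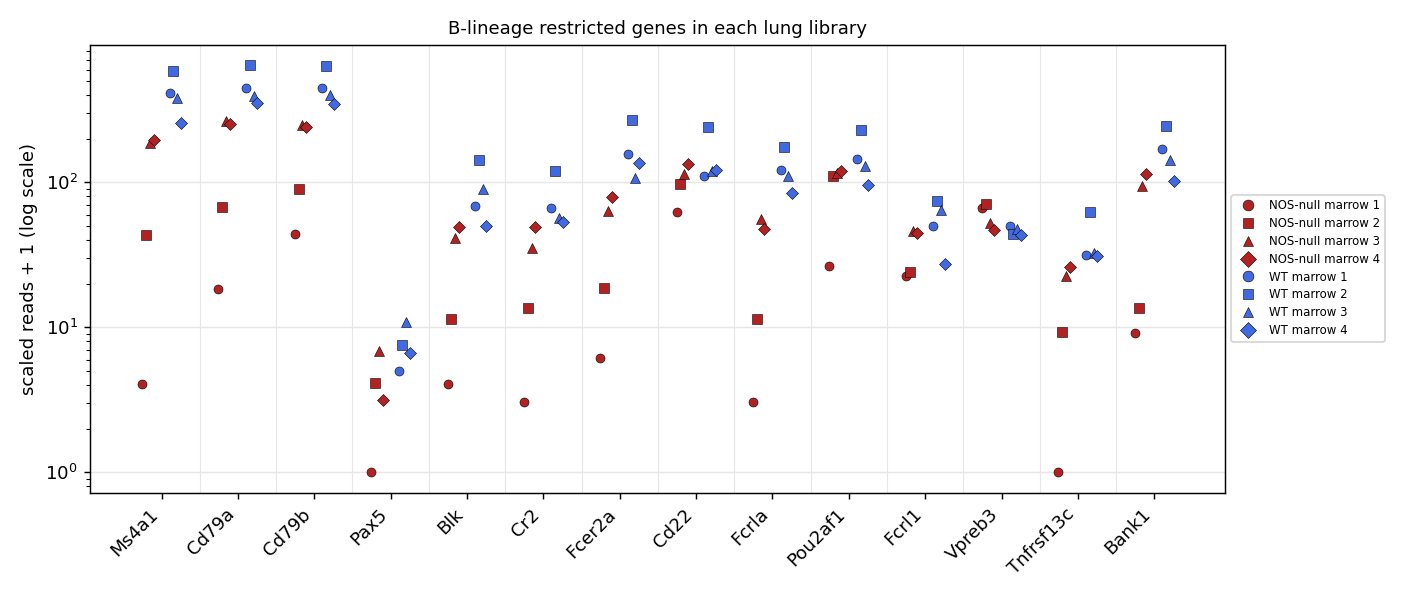
Scaled reads plus 1 (log axis) of the 14 B-lineage restricted genes in each library, NOS-null marrow in red and WT marrow in blue, with a symbol for each replicate. For Ms4a1, Cd79a and Cd79b the 4 red points spread widely and all lie below the blue ones, while for Vpreb3 the red points lie level with or above the blue.

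The signalling chains of the receptor came first. Cd79a stood at 17.4, 66.6, 265 and 250.2 scaled reads with NOS-null marrow (replicates 1 to 4, in this order throughout) and at 446, 644, 392 and 354 with WT marrow. Cd79b stood at 43.1, 89.5, 246 and 238 against 450.1, 632, 400.1 and 347. For both genes the groups did not overlap, replicate 1 of NOS-null marrow was the lowest library and replicate 2 of WT marrow the highest. The log2 difference of Cd79a was −2.23 (SE 0.72, adjusted p = 0.0916) and that of Cd79b −1.85 (SE 0.49, adjusted p = 0.0578). Neither passed. Without NOS-null marrow replicate 1 they were −1.44 (adjusted p = 0.076) and −1.35 (adjusted p = 0.0476), so that Cd79b passed in that fit. Per length, Cd79b and Cd79a were among the most abundant members with WT marrow, at 55.1 ± 14.9 and 48.9 ± 13.7 FPKM (SD, n = 4), against 18.6 ± 12.5 and 16.0 ± 13.5 FPKM with NOS-null marrow.

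Ms4a1, which encodes the surface protein CD20, had 3.08 scaled reads in NOS-null marrow replicate 1, the worth of 3 reads. It stood at 42.7, 186 and 196 in replicates 2 to 4 and at 413, 590.1, 378 and 257 with WT marrow (log2 difference −2.96, SE 1.02, adjusted p = 0.108). Leaving out replicate 1 of NOS-null marrow gave −1.75 (adjusted p = 0.0636), and leaving out its replicates 1 and 2 gave −1.04 (adjusted p = 0.0763). Faim3, now Fcmr, encodes a receptor for the constant part of IgM. Its values were 2.05, 7.29, 56.2 and 66.3 against 146, 241, 130.1 and 137. It had the largest difference of the members, −3.17 (SE 0.85, adjusted p = 0.0607), and its 4 NOS-null marrow values all lay well under the lowest WT marrow value. Fcer2a encodes CD23, the low-affinity IgE receptor, and Fcrla an Fc receptor-like protein that stays inside B cells. Fcer2a stood at 5.13 to 78.3 against 106 to 270 (−2.52, SE 0.70, adjusted p = 0.0647), and Fcrla at 2.05 to 55.2 against 84.1 to 173 (−2.77, SE 0.78, adjusted p = 0.067). The groups of both genes were separated.

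Co-receptors of the antigen receptor did not share one pattern. Cr2, the gene of complement receptor 2, which lowers the threshold for activation, stood at 2.05, 12.5, 34.5 and 47.9 scaled reads against 65.6, 118, 56.2 and 52.0 (−2.10, SE 0.73, adjusted p = 0.11, and −1.29 without NOS-null marrow replicate 1). The highest NOS-null marrow value was close to the lowest WT marrow value, without overlap. Cd22, an inhibitory lectin co-receptor, overlapped between the groups, at 61.5 to 134 against 110.3 to 242 (−0.52, SE 0.29, adjusted p = 0.27). An antisense gene overlaps its exons, and the strand used in counting is not given. Cd72, another inhibitory co-receptor, was low in replicates 1 and 4 of NOS-null marrow, at 30.8 and 54.4. It was near WT marrow in replicates 2 and 3, at 90.6 and 90.7, against 84.1 to 127 with WT marrow (adjusted p = 0.223). Exons of Tesk1 on the opposite strand overlap those of Cd72. Btla, an attenuator receptor of B and T cells, stood at 60.5, 113, 150 and 120 against 241, 302, 187 and 145 (−0.99, SE 0.29, adjusted p = 0.0709). Its overlap came from 1 library of each group, NOS-null marrow replicate 3 and WT marrow replicate 4.

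Of the kinases and adaptors below the receptor, Blk and Bank1 were low in the same libraries as Cd79a. Btk was level, Blnk was low in NOS-null marrow replicate 1 only, and Stap1 was lowest in NOS-null marrow replicates 1 and 3. Blk, a B cell kinase of the Src family, stood at 3.08, 10.4, 40.4 and 47.9 scaled reads against 67.6, 141, 88.7 and 49.2 (−2.22, SE 0.70, adjusted p = 0.0891). Bank1, a scaffold protein of B cells, stood at 8.20, 12.5, 93.7 and 113 against 170, 244, 141 and 101 (−2.21, SE 0.75, adjusted p = 0.105). Btk, the kinase whose loss in humans leaves almost no B cells and which myeloid cells also use, was level between the groups, at 117 ± 33.3 against 117 ± 15.3 (95% interval of the log2 difference −0.46 to 0.41, adjusted p = 0.947). Blnk, the adaptor that links the kinases to calcium signals, was low only in NOS-null marrow replicate 1, at 25.6 against 59.3 to 73.9 in the other 3 and 59.6 to 126 with WT marrow. The adaptor gene Stap1 differed by −0.48 (adjusted p = 0.319).

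Rasgrp3, which encodes an activator of Ras and Rap that works in B cells and also in endothelium, fell. It stood at 892, 902, 1221 and 1292 scaled reads with NOS-null marrow and at 1831, 2135, 1711 and 1638 with WT marrow. The groups were well apart, and the spread within each was small beside that of Cd79a. The log2 difference was −0.78 (SE 0.14, adjusted p = 0.0218), a WT marrow mean 1.70 times the NOS-null marrow mean. NOS-null marrow replicate 1 kept 48.8% of the WT marrow mean of Rasgrp3 and 3.79% of that of Cd79a. It no longer passed when replicate 2 of NOS-null marrow was left out (adjusted p = 0.0684), or replicate 1, 2 or 3 of WT marrow (0.0787, 0.0649 and 0.0588). The summed level of 10 endothelial markers was 32350 to 38746 scaled reads with NOS-null marrow and 31104 to 33644 with WT marrow. The part of endothelium in the Rasgrp3 result was not tested.

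Among the transcription factors, Bcl11a fell and the others did not pass. Bcl11a, needed for early B cell development and also used by plasmacytoid dendritic cells, stood at 14.4, 21.9, 20.7 and 31.5 scaled reads against 52.7, 71.2, 39.4 and 52.0. The groups were separated and no NOS-null marrow library stood apart. The log2 difference was −1.27 (SE 0.26, adjusted p = 0.0316). It no longer passed when replicate 2 of NOS-null marrow (adjusted p = 0.0896) or any 1 replicate of WT marrow (0.0588 to 0.106) was left out, nor with FPKM values (0.0673). An antisense gene overlaps its exons. Siglech, a defining gene of plasmacytoid dendritic cells, stood at 14.4 to 55.5 with NOS-null marrow and 32.5 to 41.7 with WT marrow. None of 8 tested plasmacytoid markers passed. At an unadjusted p under 0.05 in limma, 3 were higher and 1 lower, beside 13.3% of all tested genes in each direction. The summed level over 10 markers was 4948 to 5333 scaled reads against 5244 to 5418, and the values of Siglech are small beside that sum. The part of plasmacytoid dendritic cells in the Bcl11a result was not tested.

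Pax5, the factor that commits cells to the B lineage, was too low to test, at 0, 3.12, 5.92 and 2.18 scaled reads against 3.97, 6.56, 9.85 and 5.67. A value of 0 in NOS-null marrow replicate 1 allows up to 3.08 scaled reads, counting error only. Spib, a factor of the Ets family in B cells and plasmacytoid dendritic cells, stood at 7.18 in replicate 1 and 37.0 to 57.3 in the other 3, against 56.6 to 93.7 (−1.27, SE 0.51, adjusted p = 0.151, and −0.66 without NOS-null marrow replicate 1). Its values in replicates 3 and 4 also lay below all WT marrow values. Pou2af1, a coactivator of B cells and plasma cells, was lowest in replicate 1, at 25.6 against 109 to 120 in the other 3, which lay within the 94.5 to 228 of WT marrow (−0.83, adjusted p = 0.273, and −0.30 without NOS-null marrow replicate 1). Ebf1, which lung mesenchymal cells also express, was level, at 109 ± 25.1 against 103 ± 14.2 (95% interval −0.33 to 0.47, adjusted p = 0.828). Bach2 and Ikzf3, which T cells also use, differed by −0.24 and −0.21 (adjusted p = 0.229 and 0.704). Ikzf3 was highest among NOS-null marrow libraries in replicate 2, at 78.1 against 33.8 to 49.3, the library with the most T cell RNA.

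**Figure D2:**
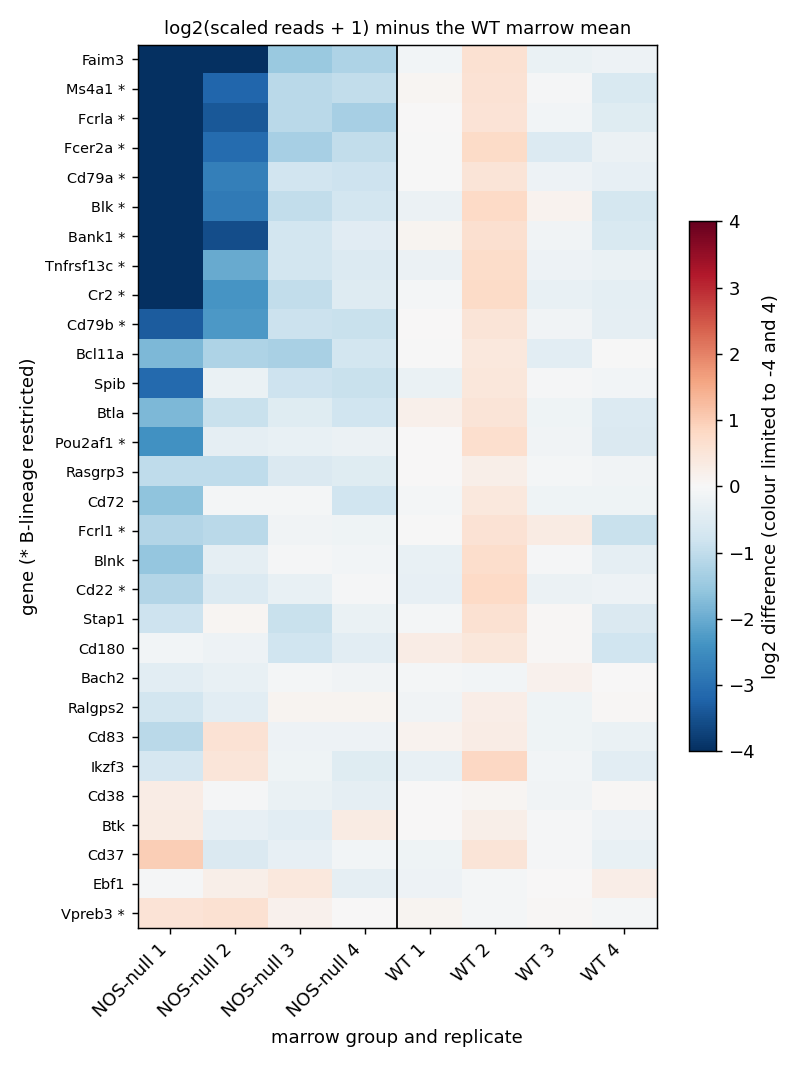
Difference of log2(scaled reads + 1) from the WT marrow mean for the 30 tested genes (rows, from the most negative group difference at the top) in each library (columns). The deep blue block covers the upper rows in NOS-null marrow replicates 1 and 2, replicates 3 and 4 are pale blue in the same rows, and the lower rows, with Btk, Cd37 and Ebf1, show no such block.

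The survival receptor Tnfrsf13c, through which B cells sense the cytokine BAFF, was listed at 0 in NOS-null marrow replicate 1, which allows up to 3.08 scaled reads. It stood at 8.33, 21.7 and 25.0 in replicates 2 to 4 and at 30.8, 61.8, 31.5 and 30.2 with WT marrow (−2.13, SE 0.87, adjusted p = 0.156). The difference was −1.10 without replicate 1 of NOS-null marrow (adjusted p = 0.127) and −1.46 with a pseudocount of 5 (adjusted p = 0.108). Tnfsf13b, the gene of BAFF itself, was at 361 ± 77.3 against 339 ± 28.1 (adjusted p = 0.825). Tnfrsf13b, another receptor for BAFF, was too low to test, at 4.93 to 10.3 against 4.93 to 15.9.

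The remaining members are mostly surface or membrane-linked proteins that other cells use too. Cd37, a tetraspanin of leukocytes, was highest in NOS-null marrow replicate 1, at 448 scaled reads against 151 to 212 in the other 3 and 183 to 327 with WT marrow (log2 difference −0.01, adjusted p = 0.99). This is the library with the most neutrophil RNA. The exons of Cd37 and of Tead2 on the opposite strand overlap, as do those of Cd180 and Mast4. Cd38, an enzyme on many cells, Cd83, a marker of activated B and dendritic cells, and Cd180, a relative of the Toll-like receptors, differed by −0.09, −0.22 and −0.38 (adjusted p = 0.683, 0.652 and 0.385). Ralgps2, an activator of Ral GTPases, and Fcrl1, an Fc receptor-like protein of B cells, differed by −0.23 and −0.64 (adjusted p = 0.455 and 0.267).

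Vpreb3, which encodes a partner of the antibody chains during their assembly, was the restricted gene that did not stand lower. It was at 65.6, 69.8, 51.3 and 45.7 scaled reads with NOS-null marrow and at 48.7, 43.1, 46.3 and 42.5 with WT marrow. Its 2 highest values came from NOS-null marrow replicates 1 and 2, the libraries with the least Cd79a. The log2 difference was 0.34 (SE 0.17, adjusted p = 0.231).

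**Figure D3:**
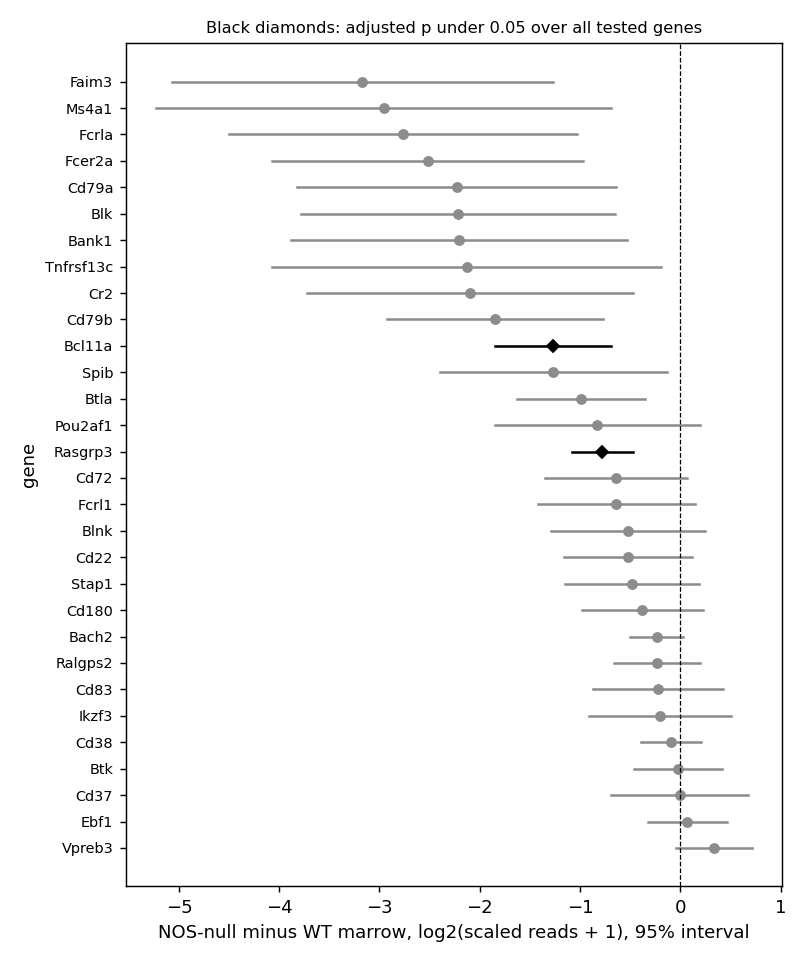
Log2 difference between NOS-null marrow and WT marrow for the 30 tested genes, with 95% intervals from limma, and black diamonds for the genes that passed. Bcl11a and Rasgrp3 have narrower intervals than Faim3, Ms4a1 and Fcrla, whose differences are larger. Some genes that did not pass, among them Bach2 and Cd38, have intervals narrower still.

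Promoters of 4 of these genes are shown because Fcrla and Cr2 were low together, Rasgrp3 fell, and Vpreb3 went the other way. They come from RefSeq (GRCm38.p6), which gave promoters for 25 of the 31 members. They run from 150 to 10 bases before the RefSeq gene start on the gene's strand. In another annotation (GENCODE M21) Vpreb3 spans chr10:75943057-75949657, starting further upstream, so its window lies within that span. Capitals mark a match to a motif of a B cell factor. The motifs searched on both strands of the 300-base promoters were the octamer ATTTGCAT (reverse ATGCAAAT), the EBF motif CCCNNGGGA (reverse TCCCNNGGG), and GAGGAAGT (reverse ACTTCCTC), bound by PU.1 and Spi-B.
Fcrla, chr1:170927593-170927733, minus strand: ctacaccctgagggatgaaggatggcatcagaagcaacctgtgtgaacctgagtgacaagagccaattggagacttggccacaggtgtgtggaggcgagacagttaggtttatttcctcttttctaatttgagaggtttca
Cr2, chr1:195176729-195176869, minus strand: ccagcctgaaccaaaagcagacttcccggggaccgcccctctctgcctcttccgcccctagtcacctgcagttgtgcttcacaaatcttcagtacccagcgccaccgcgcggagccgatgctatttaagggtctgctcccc
Rasgrp3, chr17:75435755-75435895, plus strand: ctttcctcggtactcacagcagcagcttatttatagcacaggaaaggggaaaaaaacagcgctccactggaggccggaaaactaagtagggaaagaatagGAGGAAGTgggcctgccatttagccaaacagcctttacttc
Vpreb3, chr10:75948150-75948290, plus strand: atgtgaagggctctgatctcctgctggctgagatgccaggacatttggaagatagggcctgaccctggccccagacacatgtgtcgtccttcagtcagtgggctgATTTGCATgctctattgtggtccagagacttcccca
The octamer lay in the promoters of Vpreb3 and Blnk and in 1.74% of all 32851 promoters. The EBF motif lay in that of Cd22 and in 6.56% of all. The PU.1 and Spi-B motif lay in those of Fcrl1, Cd37, Cd72, Btla and Rasgrp3 and in 3.20% of all. Among the 4 promoters shown, Fcrla and Cr2 hold none of the 3 motifs. These are matches of letters in a short window.

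Of 21 tested other genes of the B cell receptor pathway, 0 rose and 0 fell in limma at the adjusted threshold, and at an unadjusted p under 0.05, 1 was higher and 1 lower (median log2 difference 0.10), each a smaller share than over all tested genes. The lower one was Siglecg, which encodes an inhibitory lectin of B cells and was singled out after its values were seen. Siglecg stood at 3.08, 9.37, 43.4 and 47.9 against 74.5, 135, 74.9 and 72.8 (−2.32, SE 0.70, adjusted p = 0.0758). It ranked the NOS-null marrow libraries as Ms4a1 did, with replicates 1 and 2 far under replicates 3 and 4, and the groups did not overlap. The widely used Lyn, a Src family kinase, was at 1363 ± 372 against 1254 ± 114, and Cd81, a tetraspanin of many cells, at 4248 ± 451 against 4411 ± 290 (adjusted p = 0.738 and 0.708).

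Of 15 tested genes of B cell recruitment and survival, 2 fell and 0 rose, both of them ligands that stromal and lymphatic cells make. Cxcl12, the ligand of CXCR4 that holds B cells and their precursors in marrow and tissue, fell from 4584 ± 116 to 2408 ± 435 (−0.95, SE 0.12, adjusted p = 0.00722). Ccl21a, a ligand of CCR7, stood at 233, 298, 349 and 355 against 434, 429, 469 and 449 and fell (−0.55, SE 0.13, adjusted p = 0.0457). Near-identical copies of Ccl21a exist in mouse, so its value is uncertain. Cxcr5, the receptor that leads B cells into follicles, stood at 12.3, 22.9, 79.9 and 81.6 against 117, 183, 100.5 and 86.0 (−1.62, SE 0.54, adjusted p = 0.102). Its ligand gene Cxcl13 overlapped widely, at 114 to 572 against 100.2 to 328 (adjusted p = 0.602).

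Genes of later and earlier B cell stages gave other patterns. Igj (Jchain) encodes the chain that joins antibodies of the IgM and IgA classes, and it rose, at 279, 3767, 895 and 560 scaled reads against 89.4, 148, 62.1 and 203 (2.89, SE 0.67, adjusted p = 0.0448). NOS-null marrow replicate 2, low for Cd79a, held the most Igj. Of 10 tested plasma cell genes, Igj rose, and Xbp1 and Txndc5, which act in protein secretion in many lung cells, fell (−0.37 and −0.34, adjusted p = 0.0423 and 0.0448). At an unadjusted p under 0.05 in limma, 4 of the 10 were lower and 2 higher, beside 13.3% of all tested genes in each direction. The median log2 difference of the plasma cell list was −0.12. Of 6 tested germinal centre genes Ung, a uracil glycosylase used in antibody gene diversification and in DNA repair generally, fell from 18.8 ± 2.69 to 7.99 ± 0.70 (adjusted p = 0.0329), and 5 did not pass. The NOS-null marrow values of Ung lay under the filter of 10 scaled reads. Ung thus entered the test only through the WT marrow libraries, where it was higher. Of 9 listed precursor genes, 3 were tested and 0 passed. Several precursor genes, chosen after their values were seen, were near 0. Rag2 and Vpreb2 were listed at 0 in every library, Rag1 at most 3.78 and Igll1 at most 1.89. The whole precursor list was not near 0, with sums of 3662 to 4501 scaled reads with NOS-null marrow and 3809 to 4677 with WT marrow.

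None of 10 tested MHC class II genes passed in limma. At an unadjusted p under 0.05 in limma, 6 were higher and 2 lower, beside 13.3% of all tested genes in each direction. The log2 difference was positive in 7 and negative in 3, with a median of 0.41. H2-Ob encodes a chain of H2-O, an MHC class II accessory molecule found mainly in B cells. It stood at 45.1, 79.1, 149 and 163 scaled reads against 232, 374, 224 and 181 (−1.32, SE 0.38, adjusted p = 0.0683). H2-Oa, the partner chain, stood at 17.4 to 43.4 against 34.98 to 82.4 (−0.84, adjusted p = 0.138). H2-Aa and H2-Ab1, chains of the presenting molecule itself, stood at 6597 ± 2503 against 4296 ± 571 and 3607 ± 1030 against 2397 ± 272 (adjusted p = 0.134 and 0.0732). H2-Ob, H2-Oa and H2-Ab1 were singled out after their values were seen, and no test compared one chain with another.

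**Figure D4:**
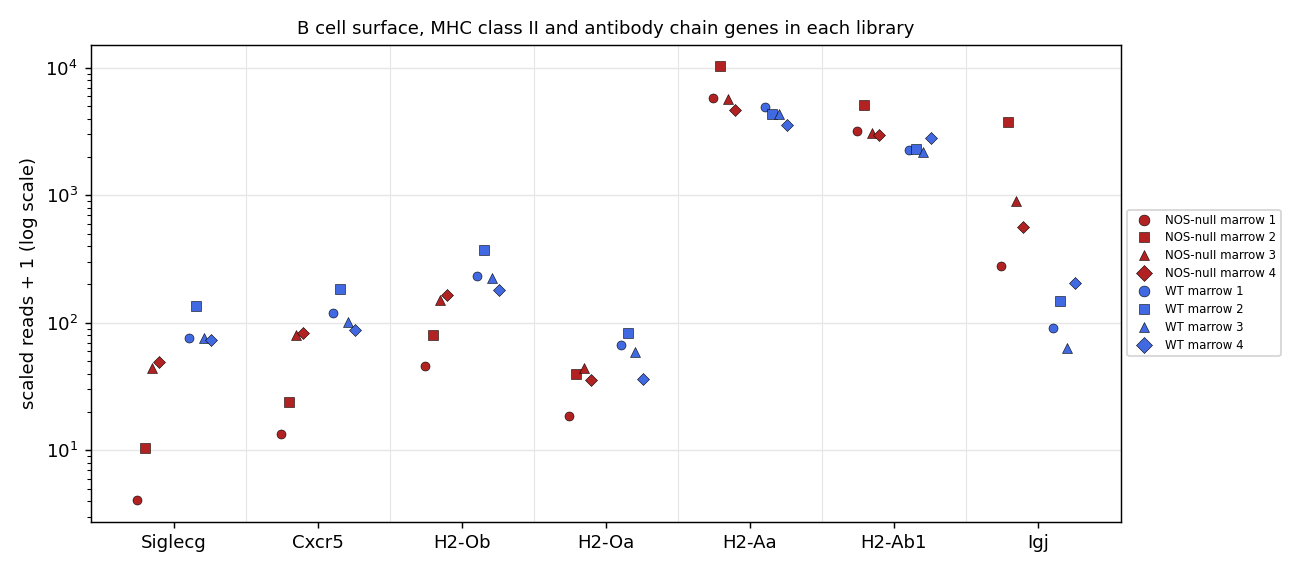
Scaled reads plus 1 (log axis) of 7 genes outside the 31, in each library. Siglecg, Cxcr5 and H2-Ob lie lower in red (NOS-null marrow) than in blue (WT marrow), with replicates 1 and 2 lowest, while H2-Ab1 and Igj lie higher in red.

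The other leukocyte lists ordered the libraries differently. All 10 pan-leukocyte markers had a positive log2 difference (median 0.38) and none passed in limma or at an unadjusted p under 0.05. Summed over the list, NOS-null marrow libraries held 27738, 13745, 9887 and 10889 scaled reads (replicates 1 to 4) and WT marrow libraries 8576 to 12212. The library with the fewest reads of Ms4a1 thus held the most pan-leukocyte RNA. Of 15 tested T cell markers 0 passed in limma. At an unadjusted p under 0.05 in that fit, 5 were higher and 0 lower, beside 13.3% of all tested genes in each direction. Cd3e, a chain of the T cell receptor complex, stood at 54.3, 140, 54.2 and 44.6 against 25.8, 53.4, 20.7 and 41.6 (adjusted p = 0.149). Of 8 tested natural killer cell markers, 3 fell, Gzma, Klra8 and Klrb1c, with a median of −1.22 over the list. Gzma, a granule protease, fell from 161 ± 21.4 to 68.0 ± 25.8 (adjusted p = 0.0191), and reads of Klra8 can be shared with near-identical family members. At an unadjusted p under 0.05 in limma, 6 of the 8 natural killer markers were lower and 0 higher, beside 13.3% of all tested genes in each direction. In 4 of the 8 the groups were separated with NOS-null marrow lower, beside 9.29% of all tested genes. The natural killer sum was 334, 323, 206 and 174 scaled reads with NOS-null marrow (replicates 1 to 4) and 372 to 570 with WT marrow. It was lowest in replicates 3 and 4 of NOS-null marrow, where Cd79a was higher than in replicates 1 and 2.

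**Figure D5:**
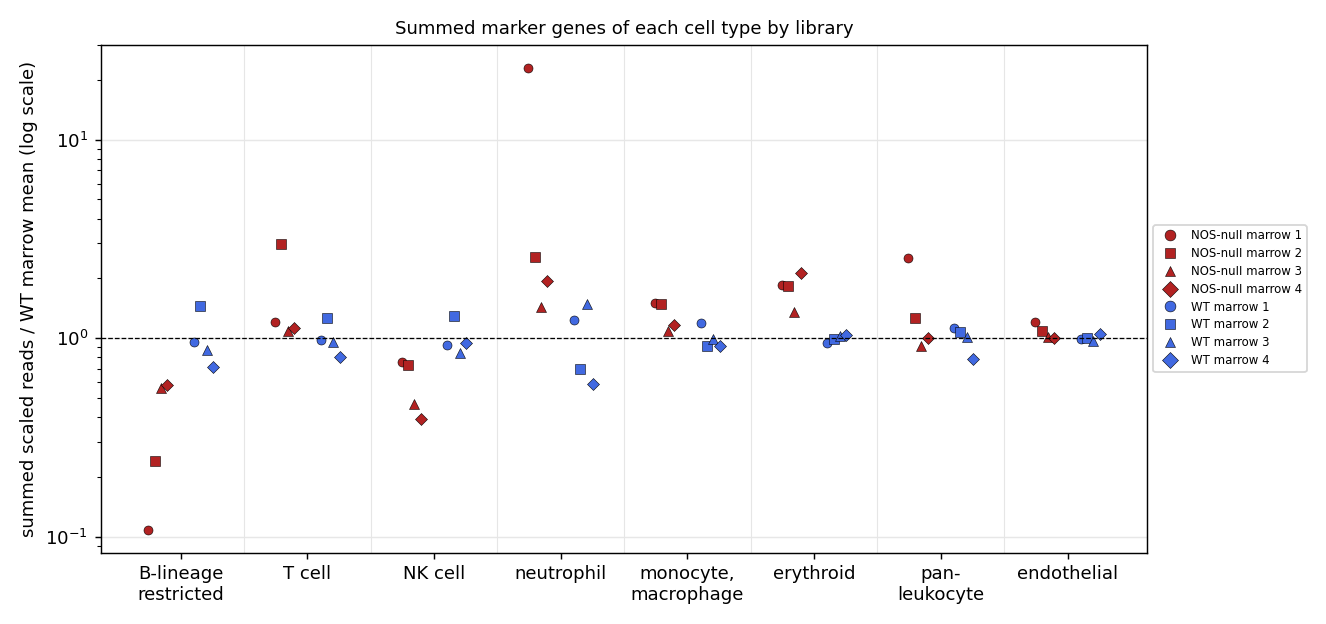
Summed scaled reads of 8 gene lists in each library, divided by the WT marrow mean of that list (log axis, dashed line at 1). The B-lineage restricted sum is lowest in NOS-null marrow replicates 1 and 2, at 0.11 and 0.24 of the WT marrow mean, where the pan-leukocyte sum is 2.55 and 1.26 and the neutrophil sum 23.0 and 2.55.

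Replicates 1 and 2 of NOS-null marrow, the 2 libraries with the lowest B-lineage restricted sum, were left out together. That choice follows the values of these same genes, so the adjusted p-values of the fit are no separate support. With 2 NOS-null marrow and 4 WT marrow libraries the median of the 30 genes was −0.56, and 3 of them were called lower and 0 higher. Of all 14008 tested genes, 181 were called there in either direction. Fcrla (−1.20, adjusted p = 0.0462), Faim3 (−1.36, adjusted p = 0.0178) and Rasgrp3 passed in that fit, and Bcl11a did not (−1.01, adjusted p = 0.106). Leaving out 1 library at a time, 0 members were called lower without replicate 2 of NOS-null marrow or replicate 1, 2 or 3 of WT marrow. Of all tested genes, 71 to 95 were called there in either direction. Without replicate 4 of WT marrow 1 member was called lower, beside 233 of all tested genes called. Without replicates 1, 3 and 4 of NOS-null marrow 3, 6 and 8 members were called lower, beside 492, 757 and 798 of all tested genes. The number called over all genes thus changed between these fits as well. The 3 without replicate 1 were Cd79b, Bcl11a and Rasgrp3. WT marrow replicate 2 held the highest of the 8 values in 23 of the 30 members, and NOS-null marrow replicate 1 the lowest in 23.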

How the data were processed

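RNA of 8 whole lungs was sequenced as single reads. The deposited signal values are read counts that the authors divided by 1 size factor per library, read from the values themselves, which are near whole multiples of a step per library. The authors' deposited FPKM values served for levels per length and as an alternative. Per the submitters' processing notes, the tools were CASAVA 1.8.2, TopHat2 2.0.13, Bowtie2 2.2.3, SAMtools 0.1.19 and Cufflinks 2.2.1 with mm10, the same assembly as GRCm38. No source used here states the annotation, strand or settings. Groups come from sample titles, because the series' own design text describes both groups as recipients of NOS-null marrow.

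Genes with at least 10 scaled reads in at least 4 libraries were tested as log2(value + 1) with limma 3.58.1 (R 4.3.3, trend), NOS-null marrow minus WT marrow, Benjamini-Hochberg adjusted over all 14008 tested genes, called under 0.05. The log2(value + 1) scale understates the change of low genes. Labels name separate mice only by number, so p-values reflect only how far these samples spread, which may be technical. The procedure was tested on simulated data. The members, the gene lists, taken from general knowledge, and the tests were chosen with earlier results of these data known. All members could be named. From other lists, called genes, the 2 of highest mean and a few fixed markers could be, and further genes (Siglecg, Cxcr5, Cxcl13, Rag1, Rag2, Igll1, Vpreb2, H2-Oa, H2-Ob, H2-Ab1) were chosen after their values were seen. Some genes of these lists are not reported here. Exon overlaps are from GENCODE M21. Intervals are 95%, and the floor of 3 reads covers counting error only.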

Additional observations from a re-analysis of the deposited data

Results flagged for a closer look

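Of 62 groups of 4 values (31 genes in 2 groups), 5 had 1 library whose gap to its nearest neighbour was a larger share of the group's range than Dixon's 95% limit for 4 values, which chance passes in about 1 of 20 groups. In 4 of the 5 the library was WT marrow replicate 2 and it was the highest: Cd22 at 242 scaled reads, Tnfrsf13c at 61.8, Faim3 at 241 and Cd72 at 127. The fifth was Pou2af1 in NOS-null marrow replicate 1, the lowest at 25.6 scaled reads.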

How the results depend on the processing

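Over 18 alternatives and the tested members, 495 of 533 pairs kept direction and side of the threshold. Of the rest, 13 lost a call, 14 gained one and 11 changed sign. In the main fit 28 of the 30 tested members were uncalled, so most pairs kept their side by staying uncalled. The 13 lost calls were all of Bcl11a and Rasgrp3, the only members called. The 14 members with an unadjusted p under 0.05 in the main limma fit were lower in every alternative run. They were picked by that fit and the alternatives reuse its libraries, so this is no separate support. The count of members called lower was 1 with FPKM values and 1 with a filter at 50. Over the fits that left out 1 replicate it ran from 0 to 8, and the count of all tested genes called from 71 to 798. The median difference ran from −0.88 to −0.47 in those fits. Of 193 tested genes of the other lists, 17 were called lower and 6 higher, and leaving out 1 replicate gave 7 to 21 lower and 1 to 13 higher. The number higher was 3 with FPKM values, with no filter, with limma's robust setting and without NOS-null marrow replicates 1 and 2 together. Without those 2, Ralgps2 changed sign (0.11). Leaving out 1 replicate also moved the signs of Cd37 (−0.34 to 0.18), Btk (−0.15 to 0.11), Cd83 (−0.49 to 0.062), Ikzf3 (−0.44 to 0.068) and Ebf1 (−0.049 to 0.21). With the replicate number as a block, 0 members and 7 genes of the other lists were called lower, beside 135 of all tested genes called in either direction. Same-numbered libraries correlated at 0.04, 0.17, −0.003 and 0.15 in their deviations from group means, not every library matched its own number best, and the numbers were not taken as pairs. The causes of these shifts were not tested. Members of 3 reads or fewer in NOS-null marrow replicate 1 (Ms4a1, Blk, Cr2, Fcrla, Faim3, Tnfrsf13c, Pax5) have log2 differences limited by depth.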
